A study of Arabidopsis thaliana with 15 samples.

Results

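Enzymes that reduce reactive carbonyls were followed at the RNA level in Arabidopsis thaliana roots kept in hydrogen peroxide (H2O2). The 9 genes were taken by AGI locus code, with earlier results of these data known. They are the 12-oxophytodienoate reductase genes OPR1 (AT1G76680) and OPR2 (AT1G76690), the alkenal reductase gene AER (AT5G16970), its tandem relatives AT5G16960, AT5G16980, AT5G16990 and AT5G17000, and the aldo-keto reductase genes AKR4C8 (AT2G37760) and AKR4C9 (AT2G37770). Of the 9 codes, 6 stood in the deposited table of 14532 genes. The codes AT5G16960, AT5G16980 and AT5G16990 were not in it and were not analysed here. A filter on low counts passed OPR1, OPR2, AT5G17000 and AKR4C8, which are 4 of the 9986 genes tested, while AER and AKR4C9 were under it. AER and AKR4C9 are given as raw counts, with ratios of summed counts and with tests from alternative fits that kept them.

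All 15 libraries came from the roots of wild-type seedlings of ecotype Columbia-0, 7 d old, with 30 to 50 seedlings pooled in each biological replicate. There were 5 groups of 3 replicates, named a, b and c. Seedlings had been in water, in 5 mM H2O2 (separately for 1 h, 2 h and 3 h), or for 2 h in a mixture of H2O2 (5 mM) and RB (10 µM). The labels write RB in the titles but MRB in the treatment field. Rose Bengal, named in the title of the series, is a dye that makes singlet oxygen in light. The treatment field gives 1 h for water and the titles give time 0. The peroxide groups at 2 h and 3 h have no water group of the same time here by either label, and by the titles the 1 h group has none. H2O2 and time in solution cannot be told apart in those comparisons with water. Libraries with RB but no H2O2 were not analysed here.

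Oxidation of membrane lipids yields lipid peroxides, which break down into aldehydes and ketones. Those with a double bond next to the carbonyl group, such as acrolein and 4-hydroxynonenal, react readily with thiols and amines of proteins. Plants reduce them at either position: alkenal reductases act on the double bond with NADPH, aldo-keto reductases turn the carbonyl group into an alcohol with NADPH, and 12-oxophytodienoate reductases, flavoproteins of the old yellow enzyme family, also reduce the activated double bond. OPR3 is the member of that last family that serves jasmonate synthesis, and OPR1 and OPR2 are not required for it.

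Library depth ran from 689372 to 6231140 counts. All 8 root marker genes and all 12 shoot marker genes looked for were listed. The root markers summed to 1220 to 1370 CPM (counts scaled to a common library total) in water and 702 to 1240 CPM in the treated groups. The shoot markers summed to 499 to 915 CPM in water and 648 to 1350 CPM in the treated groups, so photosynthesis transcripts were present in every root library. A list of 7 root hair and epidermis genes summed to 584 to 772 CPM in water. Its sum was 184 to 200 CPM at 1 h and 35.9 to 72.6 CPM at 2 h. At 3 h it was 36.7 to 57.6 CPM and with RB 7.23 to 77 CPM. A single gene of that list reached 493 CPM and a single shoot gene 1010 CPM, so the sums lean on their most abundant genes. These sums moved between the same groups as the reductase genes below, and their part in the results was not tested. In such bulk samples fewer cells of a type and less RNA per cell cannot be told apart.

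OPR1 and OPR2 rose in every peroxide group, AKR4C8 rose from 2 h on, and AT5G17000 rose at 1 h and 2 h and at 3 h overlapped with water. None of the 4 tested genes differed detectably between H2O2 with RB and H2O2 alone at 2 h. Levels are CPM after scaling for library composition, and changes are log2 fold changes with standard errors (SE) from edgeR's quasi-likelihood model over all 15 libraries. A gene is called changed where its Benjamini-Hochberg adjusted p over all 9986 genes is under 0.05. The 4 comparisons with water share the same 3 water libraries, so their values are not independent of each other. As 3′ tags are not scaled for length or for where a transcript ends, levels are compared within a gene.

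**Figure D1:**
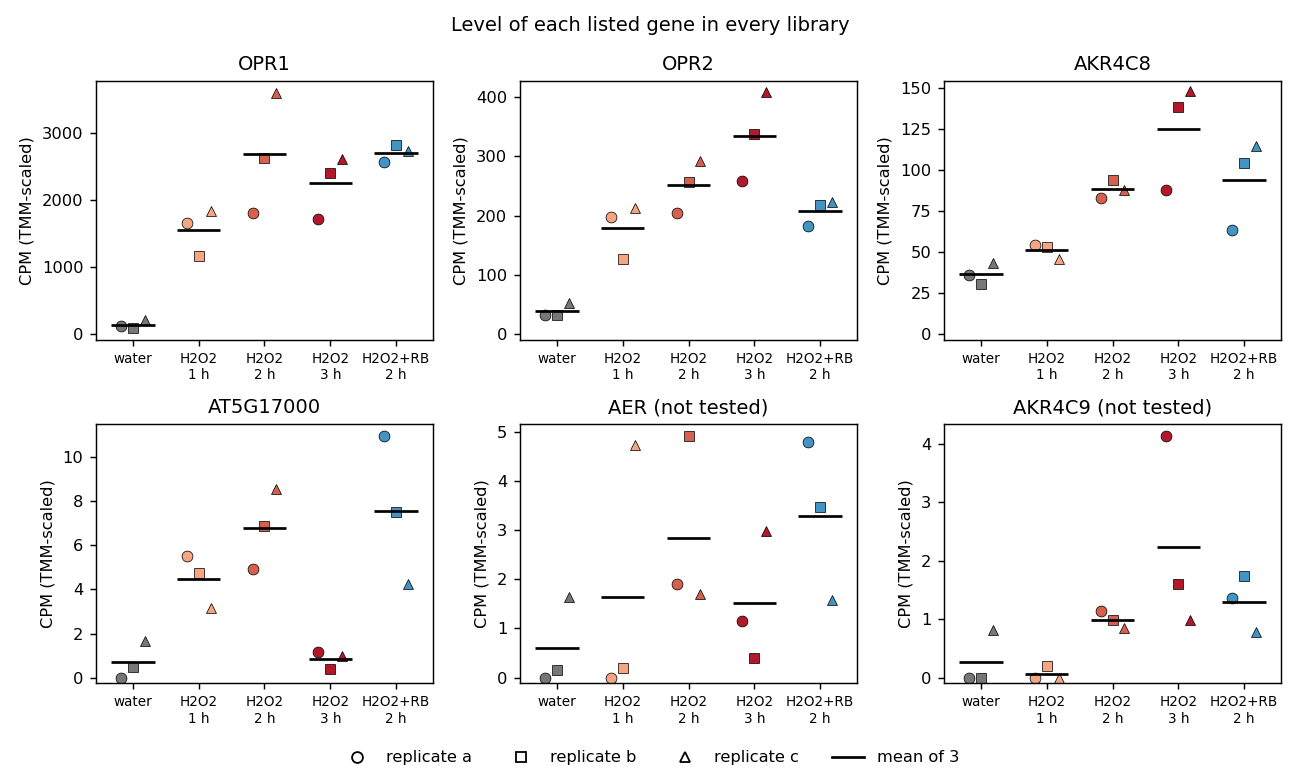
Level of the 6 listed reductase genes (CPM, a linear axis of its own for each gene) in each of the 15 libraries, with a line at the group mean of 3 replicates. OPR1 stood at 101 to 208 CPM in water and at 1170 to 3595 CPM in every library with H2O2, while AER and AKR4C9 stayed under 5 CPM throughout.

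OPR1 encodes an old yellow enzyme type reductase whose transcript is known to respond to oxidised lipids and xenobiotics. In water its level in replicates a, b and c was 128, 101 and 208 CPM. It was 1651, 1170 and 1839 CPM at 1 h and 1810, 2627 and 3595 CPM at 2 h of H2O2. It was 1719, 2409 and 2612 CPM at 3 h and 2569, 2819 and 2726 CPM with RB. Every library with H2O2 was above every water library. The treated groups overlapped one another, except that all libraries with RB were above all 1 h libraries. The replicates with RB lay closest together, with an SD of 127 CPM about a mean of 2705 CPM, against an SD of 894 CPM about 2677 CPM with H2O2 alone at 2 h.

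At 3 h OPR1 was 15.6-fold above water, with log2 fold change 3.96 ± 0.32 (SE, n = 3 per group, edgeR adjusted p = 4.6e-08), and with RB it was 18.8-fold above water (4.23 ± 0.32, edgeR adjusted p = 3.18e-08). Ranked by rise among all genes tested, OPR1 was at place 59 at 1 h, 55 at 2 h, 96 at 3 h and 81 with RB. From 1 h to 2 h its log2 fold change was 0.79, with a 95% interval from 0.19 to 1.38, but the edgeR adjusted p over all genes was 0.462. From 2 h to 3 h the value was -0.25 with an interval from -0.84 to 0.34 (edgeR adjusted p = 0.762), and no fall or rise was detectable.

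OPR2 lies next to OPR1 on the same strand and encodes a closely related reductase. Its level was 33.1, 32.7 and 53.4 CPM in water, 197, 128 and 213 CPM at 1 h and 204, 257 and 293 CPM at 2 h. At 3 h the replicates stood at 259, 337 and 408 CPM, and with RB at 183, 219 and 223 CPM. All libraries with H2O2 were again above all water libraries, and the 3 h libraries were above all 1 h libraries.

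The rise of OPR2 over water was 4.57-fold at 1 h (log2 2.19 ± 0.27, edgeR adjusted p = 1.91e-05) and 6.46-fold at 2 h (2.69 ± 0.27, edgeR adjusted p = 1.12e-06). It was 8.61-fold at 3 h (3.11 ± 0.27, edgeR adjusted p = 1.31e-07) and 5.36-fold with RB (2.42 ± 0.27, edgeR adjusted p = 2.14e-06). OPR2 was further higher at 3 h than at 1 h, by 0.91 ± 0.25 on the log2 scale (edgeR adjusted p = 0.0212). That call was lost when only the 1 h and 3 h libraries were fitted (adjusted p = 0.059) and without 1 h replicate b (0.0859), 3 h replicate b (0.0543) or 3 h replicate c (0.0976). OPR1 gained 0.53 between the same times, with an interval from -0.06 to 1.13 (edgeR adjusted p = 0.227), and whether OPR1 and OPR2 differ in this late gain was not tested.

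The rise of OPR1 over water was larger than that of OPR2 within the same libraries. The log2 ratio of OPR1 to OPR2 counts was 1.92, 1.61 and 1.95 in the water libraries. It was 3.06, 3.19 and 3.10 at 1 h, 3.14, 3.35 and 3.61 at 2 h, 2.73, 2.83 and 2.68 at 3 h, and with RB it was 3.81, 3.68 and 3.61. The lowest of the 12 libraries with H2O2 lay above the highest water library. The mean was 3.23 over the 12 libraries with H2O2 and 1.83 over the 3 in water, a difference of 1.41, which an exact two-sided permutation test put at p = 0.0022. That is the smallest p that the 455 assignments of these libraries can give, and this was the only pair with both genes past the filter. The 12 libraries are 4 groups and not 12 repeats of a single condition. Group means ran in the order water (1.83 ± 0.19, SD, n = 3), 3 h (2.75 ± 0.08), 1 h (3.12 ± 0.06), 2 h (3.37 ± 0.24) and RB (3.70 ± 0.10). The ranges of 1 h and 2 h overlapped, and those of 2 h and RB overlapped at 3.61.

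**Figure D2:**
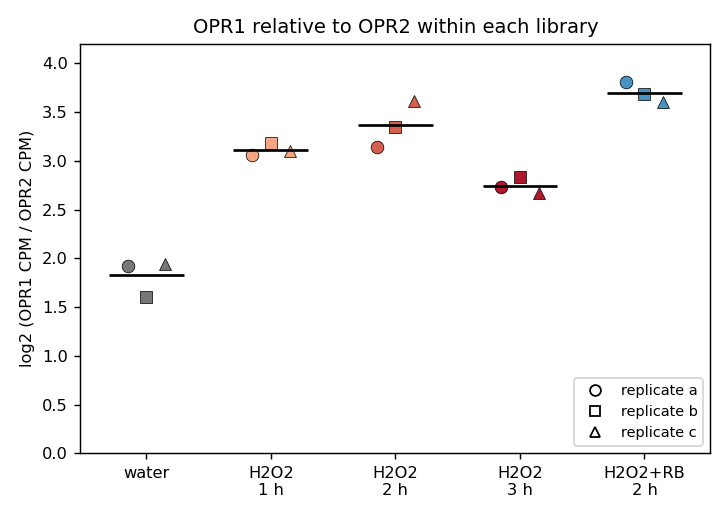
Log2 of the OPR1 to OPR2 ratio (CPM over CPM) in each library, with a line at the mean of the 3 replicates of a group. The water libraries lie between 1.61 and 1.95 and all libraries with H2O2 between 2.68 and 3.81.

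OPR1 and OPR2 may share reads. In the RefSeq annotation of assembly TAIR10.1 the transcribed regions of OPR1 and OPR2 overlap by 216 bases on the same strand. Of the 50-base windows in the last 500 bases of the longest OPR1 transcript, 37% also occur in the OPR2 transcript, and none of those in the last 500 bases of OPR2 occur in OPR1. OPR2 also overlaps AT1G76700 by 76 bases on the opposite strand. The sources used here do not give how the counting treated overlaps and strand. The level of each gene and their ratio are therefore uncertain by the reads that were split or set aside. The part of this in the change of the ratio was not tested.

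AKR4C8 encodes an aldo-keto reductase that reduces aldehydes and ketones to alcohols. Its level in replicates a, b and c was 36.3, 30.9 and 43.5 CPM in water, 54.4, 53.3 and 45.8 CPM at 1 h, and 82.9, 94.1 and 88.0 CPM at 2 h. It was 87.7, 139 and 148 CPM at 3 h and 63.6, 104 and 115 CPM with RB. The 1 h libraries lay just above the water libraries, without overlap, and the 2 h libraries lay above those at 1 h.

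At 1 h the log2 fold change of AKR4C8 over water was 0.50 with an interval from -0.05 to 1.06 and did not pass (edgeR adjusted p = 0.279). It rose 2.42-fold at 2 h (log2 1.28 ± 0.26, edgeR adjusted p = 0.00223), 3.42-fold at 3 h (1.77 ± 0.26, edgeR adjusted p = 4.38e-05) and 2.61-fold with RB (1.38 ± 0.26, edgeR adjusted p = 0.000582). Between 1 h and 3 h of H2O2 the gene gained a further 1.27 ± 0.26 (edgeR adjusted p = 0.00301). The step from 1 h to 2 h, 0.77 with an interval from 0.23 to 1.32, had edgeR adjusted p = 0.4. AKR4C8 was at place 690 by rise at 2 h, 539 at 3 h and 743 with RB among 9986 genes, lower in that order than OPR1 and OPR2 in the same comparisons.

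AT5G17000 is annotated as a zinc-binding dehydrogenase family gene and is a tandem relative of AER. It had few counts: 0, 3 and 2 in water, 6, 24 and 2 at 1 h, 13, 7 and 10 at 2 h, 5, 1 and 2 at 3 h, and 16, 13 and 27 with RB. These are levels of 0 to 1.64 CPM in water, 3.16 to 5.53 CPM at 1 h, 4.94 to 8.54 CPM at 2 h, 0.399 to 1.15 CPM at 3 h and 4.24 to 10.9 CPM with RB. The 1 h, 2 h and RB libraries were all above the water libraries and above the 3 h libraries, and the water and 3 h libraries overlapped. AT5G17000 was the only one of the 4 tested genes to pass the test for a fall between times of H2O2.

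The log2 fold change of AT5G17000 over water was 3.03 ± 0.74 at 1 h (edgeR adjusted p = 0.0117), 3.52 ± 0.72 at 2 h (edgeR adjusted p = 0.0023) and 3.64 ± 0.70 with RB (edgeR adjusted p = 0.000762). At 3 h it was 0.69 ± 0.84 with an interval from -1.07 to 2.45 (edgeR adjusted p = 0.566). From 2 h to 3 h the gene fell by 2.84 on the log2 scale (SE 0.66, interval -4.21 to -1.46, edgeR adjusted p = 0.0215), and from 1 h to 3 h it fell by 2.34 (SE 0.67, edgeR adjusted p = 0.0259). With counts summed over a group, the 3 h level was 0.145 of the 2 h level, with an exact binomial 95% interval from 0.0574 to 0.323 that covers counting error only. Without water replicate a the rises over water became 2.45 at 1 h, 2.97 at 2 h and 3.08 with RB. Without water replicate c they became 3.63, 4.13 and 4.24. These were the lowest and highest values with a library left out. The 1 h call was lost without water replicate a (adjusted p = 0.0646), water replicate b (0.0803) or 1 h replicate b (0.052). The fall from 2 h to 3 h did not pass without 2 h replicate b or c or 3 h replicate b or c (0.0642 to 0.0959), and the fall from 1 h to 3 h did not pass without 1 h replicate a or b or 3 h replicate b or c (0.0696 to 0.094).

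**Figure D3:**
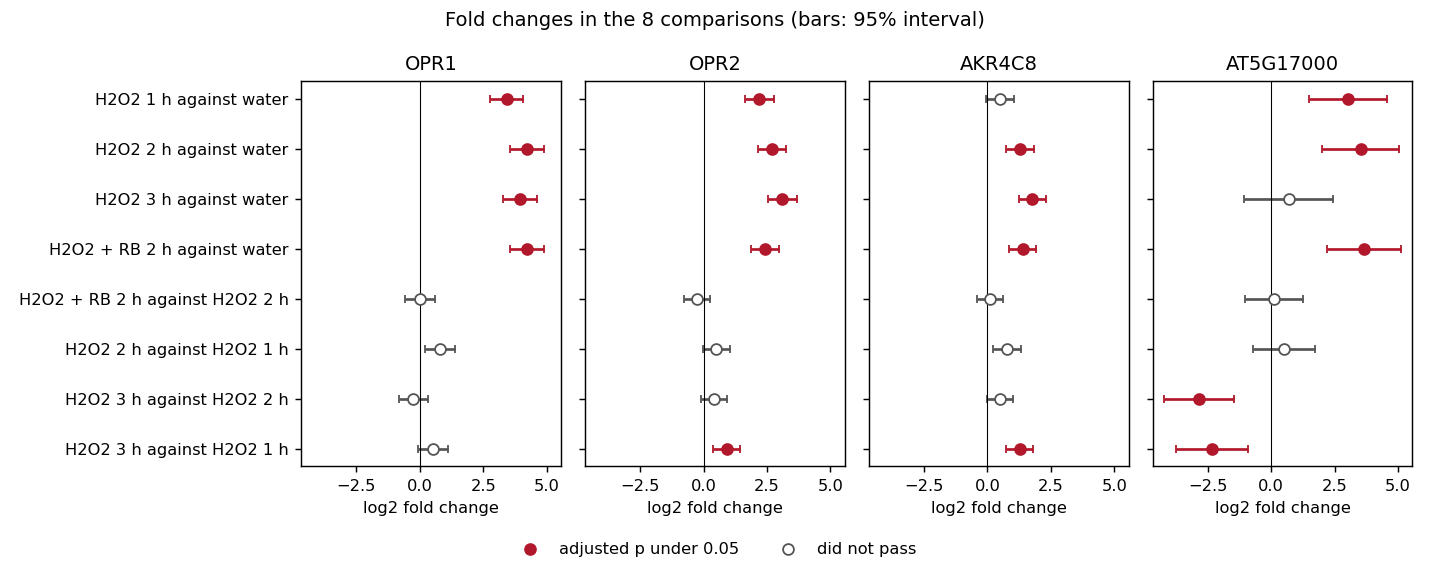
Log2 fold change with its 95% interval for the 4 tested reductase genes in each comparison, from the edgeR model over all 15 libraries. The intervals of OPR1 and OPR2 lie above 0 in the 4 comparisons with water, and that of AT5G17000 includes 0 at 3 h, where its value was 0.69.

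AER encodes the NADPH-dependent reductase of the double bond of alkenals. In the order a, b, c it had 0, 1 and 2 counts in water, 0, 1 and 3 counts at 1 h, 5, 5 and 2 counts at 2 h, 5, 1 and 6 counts at 3 h, and 7, 6 and 10 counts when RB was present. It had 54 counts over the 15 libraries and never passed 4.90 CPM. Summed over replicates and divided by depth, the ratio to water was 1.92 at 1 h (exact binomial 95% interval 0.325 to 13.1), 8.11 at 2 h (2.19 to 44.8), 4.41 at 3 h (1.19 to 24.3) and 7.85 with RB (2.37 to 40.8). These intervals cover counting error only, not the spread between replicates, and the water group held 3 counts. With no filter on low counts, the edgeR adjusted p against water was 0.799, 0.126, 0.187 and 0.0566 in the same order, so no change of AER passed in that fit. Leaving out a library let AER past the filter in several fits. It was called with RB against water only without water replicate c (edgeR adjusted p = 0.035) or 1 h replicate c (0.0452). In the other such fits the edgeR adjusted p for that comparison was 0.0829 to 0.165.

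AKR4C9, whose enzyme is a chloroplast aldo-keto reductase, had 0, 0 and 1 counts in water, 0, 1 and 0 at 1 h, 3, 1 and 1 at 2 h, 18, 4 and 2 at 3 h and 2, 3 and 5 with RB. Most of its 41 counts came at 3 h, and 18 of the 24 there came from replicate a. The ratio of summed counts to water was 26.4 at 3 h, with an exact interval from 4.31 to 1090 against a single count in water. With no filter, AKR4C9 was called at 3 h against water (edgeR adjusted p = 0.00427) and against 1 h (edgeR adjusted p = 0.0219), and not at 1 h, 2 h or with RB against water (edgeR adjusted p = 0.965, 0.192 and 0.0875). The longest RefSeq transcripts of AKR4C8 and AKR4C9 share no 50-base window, and those of AER and AT5G17000 share none in their last 500 bases. Over the whole transcript, 6.54% of AER windows also occur in AT5G17000, with a longest shared run of 114 bases. For AT5G17000, 2.58% of windows also occur in AT5G16980, which was not in the deposited table. The part of this in the counts was not tested.

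Counted over the 4 tested genes, 3 were higher and none lower at 1 h, where 6.55% of all genes tested were higher and 9.59% were called in either direction. At 2 h all 4 were higher, where 9.21% of all genes were and 13.9% were called in either direction. At 3 h 3 were higher, where 16.2% of all genes were and 30.5% were called in either direction. With RB all 4 were higher against water, where 11.6% of all genes were and 21.2% were called in either direction. AT5G17000 passed the filter through libraries in which it was high, so its place among the 4 is not independent of its rise. When only the groups compared were fitted, it was under the filter in these 4 comparisons. Of the 3 genes then tested, 2, 3, 3 and 3 were higher at 1 h, 2 h, 3 h and with RB. Between 1 h and 3 h of H2O2, OPR2 and AKR4C8 were higher and AT5G17000 was lower, where 6.91% of all genes were higher, 6.94% lower and 13.8% called in either direction. Between 2 h and 3 h, AT5G17000 was lower, where 2.18% of all genes were and 2.87% were called in either direction. From 1 h to 2 h 0 of the 4 were called by edgeR or by DESeq2, against 0.361% of all genes, and 2 of the 4 (OPR1 and AKR4C8) had an unadjusted p under 0.05. The calls in the authors' deposited table numbered 3, 4, 3 and 4 of the 6 listed genes against water at 1 h, 2 h, 3 h and with RB. That table called none of them between 1 h and 3 h, with adjusted p = 0.316 for OPR2, 0.484 for AT5G17000 and 0.0795 for AKR4C8.

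Adding RB to H2O2 for 2 h left no detectable difference in these genes. The log2 fold change of H2O2 with RB against H2O2 alone was 0.02 for OPR1 (95% interval -0.57 to 0.60), -0.27 for OPR2 (-0.79 to 0.25), 0.12 for AT5G17000 (-1.01 to 1.25) and 0.11 for AKR4C8 (-0.42 to 0.63). The edgeR adjusted p was 0.993, 0.762, 0.969 and 0.934, and 0 of the 4 had an unadjusted p under 0.05, where 2.43% of all genes tested were called. DESeq2 called 0 as well. The libraries of both groups overlapped for all 4 genes. For OPR1, OPR2 and AKR4C8 the interval leaves out a change of 1 log2 unit either way, and for AT5G17000, with its few counts, it does not.

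The 4 genes differed in how they varied over the 15 libraries. Pearson's r of log2 CPM was 0.964 between OPR1 and OPR2, 0.857 between OPR2 and AKR4C8 and 0.797 between OPR1 and AKR4C8. AT5G17000 had r = 0.642 with OPR1, 0.454 with OPR2 and 0.209 with AKR4C8. These describe libraries that share treatment groups and depth. Of all genes tested, the 5 most like OPR1 over the 15 libraries were UGT73B5 (r = 0.994), AT1G71520 (0.985), AT5G14470 (0.983), LSU3 (0.980) and SERAT2;1 (0.977).

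UGT73B5, a glucosyltransferase gene, ran from 45.6 to 1000 CPM and had log2 fold changes over water of 3.03 at 1 h, 3.60 at 2 h, 3.58 at 3 h and 3.79 with RB. SERAT2;1, a serine acetyltransferase gene of cysteine synthesis, had 2.00, 2.36, 2.45 and 2.42 in the same order, and LSU3, a gene known for its response to low sulfur, had 3.03, 3.25, 3.62 and 3.57. The 5 genes most like AT5G17000 were GSTU1 (r = 0.904), AT5G48570 (0.901), AT5G54710 (0.855), AT4G02940 (0.844) and AT5G51830 (0.840). GSTU1, a glutathione S-transferase gene, had log2 fold changes over water of 1.69 at 1 h, 2.13 at 2 h, 0.63 at 3 h and 2.33 with RB. It was picked by likeness over these same libraries, so its smallest value at 3 h is not an independent parallel to AT5G17000.

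Other genes of carbonyl and quinone metabolism were read beside the reductases. The lists held 64 genes, of which 44 were in the table and 36 were tested. At 3 h against water 11 of the 36 were higher, 0 were lower and 25 did not pass by edgeR, where 16.2% of all genes tested were higher and 14.4% lower. By list, 5 of 12 other reductases were higher (median log2 fold change 0.80), as were 2 of 9 aldehyde dehydrogenases (0.42), 3 of 11 glyoxalases and DJ-1 proteins (-0.04) and 1 of 4 quinone reductases (0.41), against a median of -0.07 over all genes tested.

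Among the other reductases the 3 with the largest rise at 3 h were aldo-keto reductase type genes. AT1G60730 stood at 96.9 ± 29.3 CPM against 7.25 ± 2.18 CPM in water (mean ± SD of 3 libraries), or log2 3.63 ± 0.38 (edgeR adjusted p = 1.1e-06), and was also called at 1 h (2.05 ± 0.39), 2 h (2.80 ± 0.38) and with RB (3.70 ± 0.38). AT1G60750 rose by 3.67 ± 0.66 (edgeR adjusted p = 0.000366) on 105 counts against 9, and AT1G59950 by 3.47 ± 1.05 (edgeR adjusted p = 0.0169) on 15 counts against 1. Mean levels in water were 1.37 CPM for AT1G60750 and 0.274 CPM for AT1G59950, and with RB 16.6 and 6.92 CPM. Both passed the filter through groups in which they were high, so their places among the genes tested are not independent of their rise. OPR3, the reductase gene of jasmonate synthesis and a relative of OPR1 and OPR2, had a log2 fold change of 0.06 at 3 h (edgeR adjusted p = 0.878). AKR4C10 and AKR4C11, relatives of AKR4C8, had 0.54 (edgeR adjusted p = 0.327) and 0.66 (edgeR adjusted p = 0.163) at 3 h. In other groups OPR3 had 0.52 ± 0.26 at 1 h (edgeR adjusted p = 0.256) and 0.52 ± 0.26 with RB (edgeR adjusted p = 0.169). With RB, AKR4C10 had 0.94 ± 0.40 (edgeR adjusted p = 0.112) and AKR4C11 0.27 ± 0.35 (edgeR adjusted p = 0.653). OPR3, AKR4C10 and AKR4C11 were not called against water in any group.

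In the other lists the aldehyde dehydrogenase gene ALDH7B4 rose to 819 ± 177 CPM from 405 ± 151 CPM at 3 h (log2 1.02 ± 0.29, edgeR adjusted p = 0.0129). ALDH12A1, whose enzyme acts in proline breakdown, rose by 0.89 ± 0.22 (edgeR adjusted p = 0.00522). GLYI7, a glyoxalase I family gene, rose to 45.7 ± 13.8 CPM from 7.56 ± 3.11 CPM (2.59 ± 0.38, edgeR adjusted p = 4.7e-05). GLY3, annotated as glyoxalase II, rose by 1.55 ± 0.40 (edgeR adjusted p = 0.00646) and the DJ-1 gene DJ1A by 1.45 ± 0.41 (edgeR adjusted p = 0.0122). FQR1, a flavodoxin-like quinone reductase gene, rose to 1938 ± 515 CPM from 839 ± 243 CPM (1.21 ± 0.26, edgeR adjusted p = 0.0016).

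As over all genes, fewer members of the lists were called at the earlier times. At 1 h against water 2 other reductases and 1 aldehyde dehydrogenase were higher and 1 glyoxalase was lower, of 36 genes, where 6.55% of all genes tested were higher and 9.59% called in either direction. At 2 h 4 other reductases and 1 gene of each other list were higher and 1 glyoxalase was lower, where 9.21% of all genes were higher and 13.9% called in either direction. With RB against water 4 other reductases, 2 glyoxalases and 1 quinone reductase were higher, 2 glyoxalases were lower and 0 of 9 aldehyde dehydrogenases passed by edgeR or DESeq2 (2 had an unadjusted edgeR p under 0.05), where 11.6% of all genes were higher and 21.2% called in either direction. The 2 glyoxalase genes lower with RB than in water were GLYI4 (log2 -0.93 ± 0.26, edgeR adjusted p = 0.0143) and AT1G67280 (-0.70 ± 0.23, edgeR adjusted p = 0.0349), named here after their values were seen. The glyoxalase gene lower at 1 h of H2O2 was also GLYI4 (-1.37 ± 0.26, edgeR adjusted p = 0.00204). That lower at 2 h was AT1G67280 (-0.75 ± 0.23, edgeR adjusted p = 0.0369). Against H2O2 alone at 2 h, GLYI4 with RB had -0.39 (edgeR adjusted p = 0.607) and AT1G67280 had 0.06 (edgeR adjusted p = 0.964). Between H2O2 with RB and H2O2 alone 0 of the 36 were called by edgeR or DESeq2 and 5 had an unadjusted edgeR p under 0.05, where edgeR called 2.43% of all genes, so the count is near that share. DESeq2 gave 3 of the 36 no adjusted p.

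**Figure D4:**
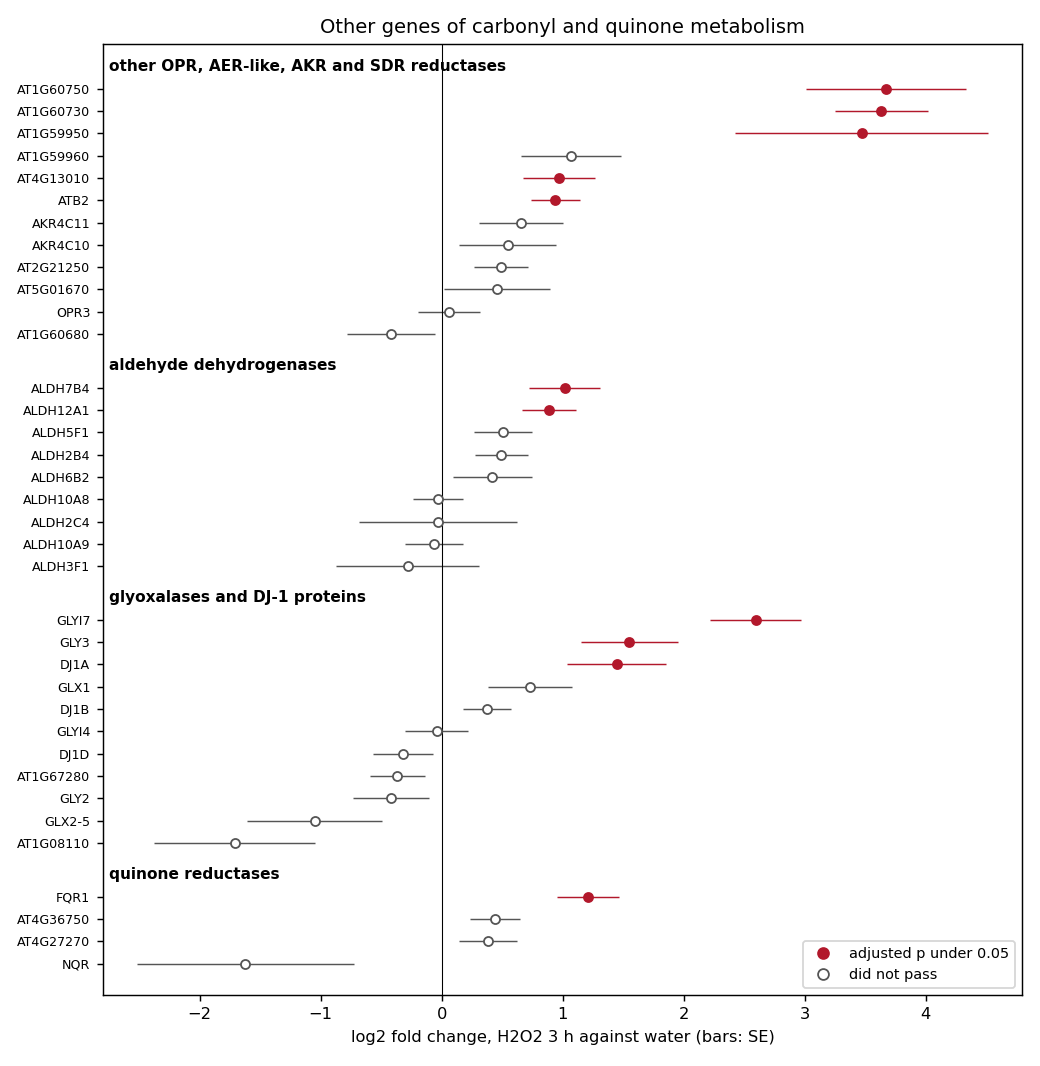
Log2 fold change (bars, SE) at 3 h of H2O2 against water for the 36 tested genes of the 4 lists, each gene a point, filled where the edgeR adjusted p is under 0.05. The 11 called genes all lie above 0, from 0.89 for ALDH12A1 to 3.67 for AT1G60750.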

How the data were processed

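Per the labels' protocols, root RNA (Trizol) was sequenced by MARS-seq, a 3′ tag method with molecular identifiers. The sources used here do not say how identifiers were treated. Tools named, without roles, in the submitters' processing notes are STAR 2.4.2a, HTSeq, DESeq2, cutadapt and bcl2fastq. The build was not given in the sources used. The authors' deposited table holds raw counts, used here in 15 columns, and 30 other per-sample columns, which were not used. Its log2 fold changes and p-values, made by the authors, were compared with the new values only. No listed gene had a maximum count under 6.

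Groups came from titles and treatment fields. Counts were filtered with filterByExpr by group (minimum count 10, total 15), leaving 9986 genes and 4546 untested, and scaled by TMM (factors 0.784 to 1.20). The model was edgeR 4.0.16 (R 4.3.3, glmQLFit, robust, 15 libraries, 10 residual degrees of freedom, biological coefficient of variation 0.272). Tests were two-sided over 8 comparisons, with Benjamini-Hochberg adjustment within each. The OPR1 to OPR2 ratio used a prior count of 2. The edgeR fit, for 3 h against water, and the permutation test were tried on simulated data, and the other steps were not. Replicates correlated at 0.890 to 0.969 in log2 CPM, and no pair agreed within counting noise. P-values measure the spread between the pooled replicates. Alternatives were RLE and upper-quartile scaling, other filters, prior counts, DESeq2 1.42.0, separate fits, a replicate block and leaving out each library.

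Genes named are the 9 chosen, the 5 most like OPR1 and AT5G17000 (AER being untested), and up to 3 called genes per list at 3 h. OPR3, AKR4C10, AKR4C11, GLYI4 and AT1G67280 were named outside this rule, after their values were seen. Members and lists were chosen with earlier results of these data known. Gene symbols came from the RefSeq table of TAIR10.1.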

Additional observations from a re-analysis of the deposited data

How the results depend on the processing

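The rises of OPR1 and OPR2 over water, and those of AKR4C8 over water at 2 h, 3 h and with RB and from 1 h to 3 h, kept their direction and their call in all 22 alternatives. Of 690 alternatives over 32 gene-level values, 664 kept direction and call, 15 lost a call and 11 changed sign. All of the sign changes were in values that passed no test. The number of the reductase genes called between 2 h and 3 h was 1, but 0 under the stricter filter, where AT5G17000 was not tested, and 0 to 1 with a library left out. Between 1 h and 3 h it was 3, but 1 when only the groups compared were fitted, where AT5G17000 was not tested, and 1 to 3 with a library left out. With a library left out, the log2 difference of RB with H2O2 from H2O2 alone ran from -0.23 to 0.28 for OPR1, from -0.23 to 0.45 for AT5G17000 and from -0.095 to 0.32 for AKR4C8, and the change of OPR1 from 2 h to 3 h from -0.44 to 0.080. The cause was not tested. The number called with RB against water was 4, and 5, with AER, without water replicate c or 1 h replicate c. The related genes called at 3 h numbered 9 to 12 with a library left out. The log2 ratio difference of OPR1 to OPR2 ran from 1.30 to 1.47 with a library left out, and was 1.40 and 1.43 with prior counts of 0.5 and 5. With a library left out the exact permutation p was 0.00275 to 0.011, each time the smallest that the assignments can give.

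With the replicate letter as a block, 3, 4, 3 and 4 reductase genes were called against water at 1 h, 2 h, 3 h and with RB, as without it, and 12 related genes were called at 3 h, of which 1 was lower. The sources used here do not say what the letters mark. Residual log2 CPM of same-letter libraries correlated at -0.444 to 0.644 (30 pairs), and 7 of 15 libraries had a same-letter library as their closest. With no filter on low counts 14532 genes were tested and AKR4C9 was also called at 3 h. Upper-quartile scaling moved the median of all genes by -0.16 (3 h against water) and -0.12 (3 h against 1 h). Depth limits AER, AKR4C9 and AT5G17000, whose group sums were 1 to 56 counts.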
